A study of Mus musculus with 6 samples.

Results

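The cytosolic ribosomal protein genes, which encode the protein parts of the ribosomes of the cytoplasm, were followed in mouse olfactory epithelium. They were taken by symbol from probe sets whose platform annotation names 1 gene: the symbols Rpl, Rps, Rplp0, Rplp1, Rplp2 and Rpsa in their usual numbered forms. This gave 46 genes of 18193 on the array, 24 of the large subunit and 22 of the small subunit, on 100 of 45101 probe sets. Each gene was represented by its probe set of highest mean signal. RNA of olfactory epithelium from mice homozygous for OMP-GFP (3 samples, 1 array each) was compared with that from heterozygous OMP-GFP mice (3 samples, 1 array each) on Affymetrix mouse 430 2.0 arrays, to ask how olfactory marker protein bears on gene expression. In this line the coding sequence of green fluorescent protein takes the place of that of Omp, the gene of a small cytoplasmic protein of mature olfactory neurons. Homozygous mice therefore carry no intact Omp coding sequence and heterozygous mice carry 1, and the number of GFP copies differs between the groups in the opposite sense, so the effects of the lost Omp and of the added GFP cannot be told apart. All 6 samples carried the knock-in allele, and no wild-type sample was analysed here. Strain, age, sex and the number of animals behind each RNA were not given in the sources used here, so the p-values measure the spread between these samples.

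A ribosome joins a small subunit, which reads the mRNA, and a large subunit, which forms peptide bonds, and each is a frame of ribosomal RNA with many different proteins bound to it. Ribosomal protein mRNAs are among the most abundant of nearly every cell, and most begin with a run of pyrimidines at the cap, through which the growth regulator mTORC1 controls their translation. The proteins are made in matched amounts, and a shortage of single members, as in Diamond-Blackfan anaemia, disturbs ribosome assembly. In the olfactory epithelium, basal cells divide and replace sensory neurons throughout life.

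The motifs below are shown because the choice by symbol did not use them and they were found in part of the genes, CTTTC and CCGGAAG at larger shares than in all genes. Promoters of RefSeq (build GRCm38.p6) were matched by symbol for 40 of the 46 genes, from 250 bases before to 50 after the annotated start. A search on the gene's strand for CTTTC, the letters with which many ribosomal protein transcripts begin, from 10 bases before to 15 after the start, found it in 11 of 40 genes (27.5%), against 3.68% of 27025 genes in the table. The following windows run from 15 bases before to 15 after the start, 5′ to 3′ on the gene's strand, with CTTTC in capitals.
Rpl38, chr11:114668565-114668594, plus strand: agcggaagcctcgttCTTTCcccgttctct
Rpl7a, chr2:26910792-26910821, plus strand: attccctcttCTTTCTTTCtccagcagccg
Rplp2, chr7:141447636-141447665, plus strand: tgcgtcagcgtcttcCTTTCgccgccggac
Rpl35, chr2:39005117-39005146, minus strand: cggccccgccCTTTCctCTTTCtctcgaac
Rps10, chr17:27635230-27635259, minus strand: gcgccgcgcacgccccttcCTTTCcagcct
Rpl13a, chr7:45128731-45128760, minus strand: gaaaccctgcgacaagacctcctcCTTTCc
CTTTC lies in the annotated start region of all of these, with 2 copies in Rpl35 and 2 overlapping copies in Rpl7a. The motif CCGGAAG, bound by ETS-family transcription factors, was searched on both strands of the whole 300-base window and neither motif contains the other. It was present in 20 of 40 genes (50%), against 9.93% of all genes. In the windows that follow its letters are in capitals, and CTTCCGG is the same motif on the other strand.
Rpl41, chr10:128549206-128549235, minus strand: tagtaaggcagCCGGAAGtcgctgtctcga
Rpl38, chr11:114668549-114668578, plus strand: gggttaaccgtCCGGAAGcggaagcctcgt
Rplp2, chr7:141447532-141447561, plus strand: gaaatgtcttcCTTCCGGtgcacccttttc
Rpl35, chr2:39005240-39005269, minus strand: ggaaggcaggaCTTCCGGgaagcggagggc
TATAAA, the letters of a TATA box, was searched in the same way and found in 5 of 40 genes (12.5%), against 15.7% of all genes. The motifs were chosen with their shares known, a match is a description and not a binding site, and the genes are not independent of each other.

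The arrays were alike in scale: the 2% trimmed mean signal was 500 on each, and the medians lay between 147.9 and 163.7. The ratios of 3′ to 5′ control signal lay between 0.705 and 0.755 for Gapdh and between 1.28 and 1.32 for Actb. Markers of the labelled tissue were present on all arrays: the summed signal of 8 mature olfactory neuron markers was 60710 to 65475 in homozygous and 51380 to 66941 in heterozygous samples, lowest in heterozygous 3. One Omp probe set, read as a check of the labels, gave 5.7, 8.8 and 31.3 in homozygous samples 1, 2 and 3, and 26.3, 4664 and 9143 in heterozygous 1, 2 and 3. The library labelled heterozygous 1 thus lay with the homozygous ones and went against its label at this probe set, while the brightest Omp probe set gave 7919 to 8774 in homozygous and 7968 to 8709 in heterozygous samples. The same library had a summed signal of 12726 for 4 myelin glia markers, against 2137 to 2631 on the other 5 arrays, and heterozygous 3 had 5495 for 8 markers of bulb and brain neurons, against 4038 to 4110. These 8 markers did not all move together: Rbfox3 (791.1) and Cplx1 (738.2) were highest in heterozygous 3, and Eomes was lowest there (205.2). Results for the members are given with and without heterozygous 1 and 3. Of 7 tested mature olfactory neuron markers, 5 were higher in homozygous samples (median log2 difference, homozygous minus heterozygous, 0.10). Of the other cell types, 6 of 7 tested immature neuron markers (-0.09) and 4 of 5 of neuronal progenitors (-0.17) were lower in homozygous samples. Neutrophil markers were higher in 5 of 5 (0.48), macrophage markers in 6 of 7 (0.12) and erythroid markers in 3 of 3 (0.53). At an unadjusted limma p under 0.05 there were 3 neutrophil, 3 macrophage and 0 erythroid markers, against 5.73% of all probe sets tested. The mature neuron, immature neuron, neuronal progenitor, and bulb and brain neuron lists each had 1. At an adjusted limma p under 0.05 these lists had 0. The summed neutrophil signal in homozygous 2 was 8584, below the 8996 to 9747 of heterozygous samples. The erythroid sum was 1925 in homozygous 1, against 437.7 to 855.9 on the other arrays. The part of these cells in the results below was not tested.

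Most ribosomal protein genes gave some of the brightest signals in the tissue. Of the 46 genes, 33 had a mean signal above 10000, and all 33 lay above the 99th percentile of the array on each of the 6 arrays, which ran from 9194 to 9687. Of the 400 probe sets above that percentile on all arrays, 57 belonged to these genes, and another 69 named a ribosomal protein gene together with other genes. Rpl41, whose product is among the smallest known proteins, was the brightest, with 25973, 26951 and 26149 in homozygous and 25028, 27384 and 24863 in heterozygous samples. Signals of different probe sets depend on their probes and are not compared here as mRNA amounts. The other 13 genes had dimmer probe sets, and for 9 of them, Rps6, Rps16, Rps25, Rps27, Rpl12, Rpl14, Rpl27a, Rpl37 and Rpl39, this follows from the choice of probe sets that name 1 gene. Each of these 9 is also named, together with other genes, by a probe set of mean signal above 10000, such as 23932 for Rps6 and 21761 for Rpl39. On those brighter probe sets the differences ranged from -0.05 to 0.08, but they cannot be assigned to 1 gene. The 3 dimmest, Rpl3l, Rps16 and Rpl39l, did not reach the signal needed for testing, so 43 genes and 84 of the 100 probe sets were tested.

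**Figure D1:**
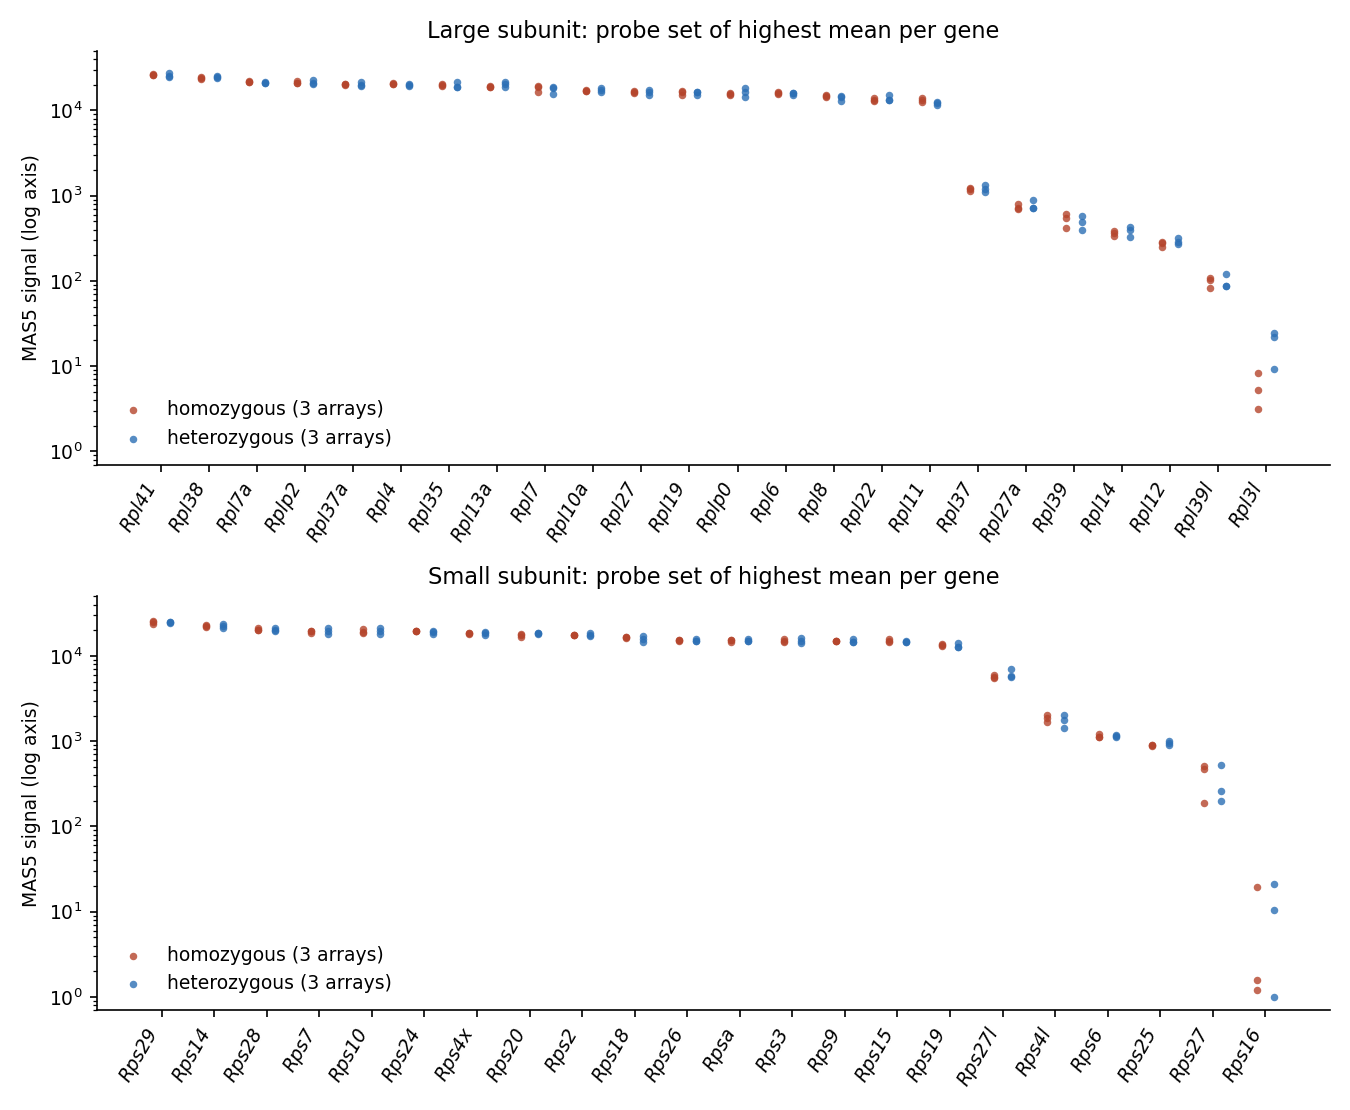
MAS5 signal (log axis) of the representative probe set of each of the 46 ribosomal protein genes on 3 homozygous and 3 heterozygous arrays, 1 point for each array. Of these genes, 33 sit above 10000 with nearly coinciding points, and the points spread only in the dim genes such as Rps27 and Rps16.

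The ribosomal protein genes were not called different between homozygous and heterozygous epithelium. With limma and Benjamini-Hochberg adjustment over all probe sets tested, 0 of the 84 probe sets had an adjusted p under 0.05, and the lowest was 0.859; over the whole array 0 of 22514 did (0.0%). At an unadjusted p under 0.05 there were 2 of 84 (2.38%), against 5.73% of all probe sets tested. They were 1 of Rpl41, higher in homozygous samples (3.34% of all probe sets were higher at this level), and 1 of Rps9, lower in them (2.4% of all were lower). The count was 6 without heterozygous 1 (7.06% of all probe sets then), 1 without homozygous 1 and 1 without heterozygous 2. It was 18 without heterozygous 1 and 3 together (9.89% of all), where the 1 remaining heterozygous array is assumed to vary like the others. Of the representatives, 0 of 43 had an unadjusted limma p under 0.05.

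The differences were small as well as uncalled. By the representative probe set, 20 genes lay higher and 23 lower in homozygous samples, with a median log2 difference (homozygous minus heterozygous) of -0.0041, against -0.0004 over all 11426 genes tested. Under a scaling of the arrays to a common median the split was 11 higher and 32 lower (74.4% lower), when 65.4% of all genes were lower. Without heterozygous 2 it was 31 higher and 12 lower (27.9% lower, against 48.4% of all genes), with a median of 0.03. Without heterozygous 1 and 3 it was 11 higher and 32 lower (74.4% lower, against 52.0% of all genes), with a median of -0.06. The difference lay within 0.15 of 0 on the log2 scale for 42 of 43 genes (97.7%), against 79.8% of all genes. Brightness goes with this: it held for all 33 bright members and for 253 of 263 other probe sets above the 99th percentile on all arrays (96.2%), whose median SE was 0.058, against 0.054 for the bright members. The median SE was 0.059, against 0.10 over all genes, and the median half-width of the 95% confidence interval was 0.13, which is 1.10-fold. For the 33 bright genes, all intervals lay between -0.24 and 0.24, which is at most 1.18-fold in signal. Their mean signals of up to 26058 stand near the array maxima of 31204 to 36021, where array signals can be compressed, so a bound on signal is not a bound on mRNA, and the degree of compression was not tested. In these genes the highest array exceeded the lowest by 1.05-fold to 1.27-fold, with a median of 1.10-fold. The groups did not overlap in 2 of the 43 genes (4.65%) and 4 of the 84 probe sets (4.76%), against 10.9% of all probe sets. In a tissue sample a lower signal can come from fewer cells of a type or from less RNA per cell, and these cannot be told apart here.

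**Figure D2:**
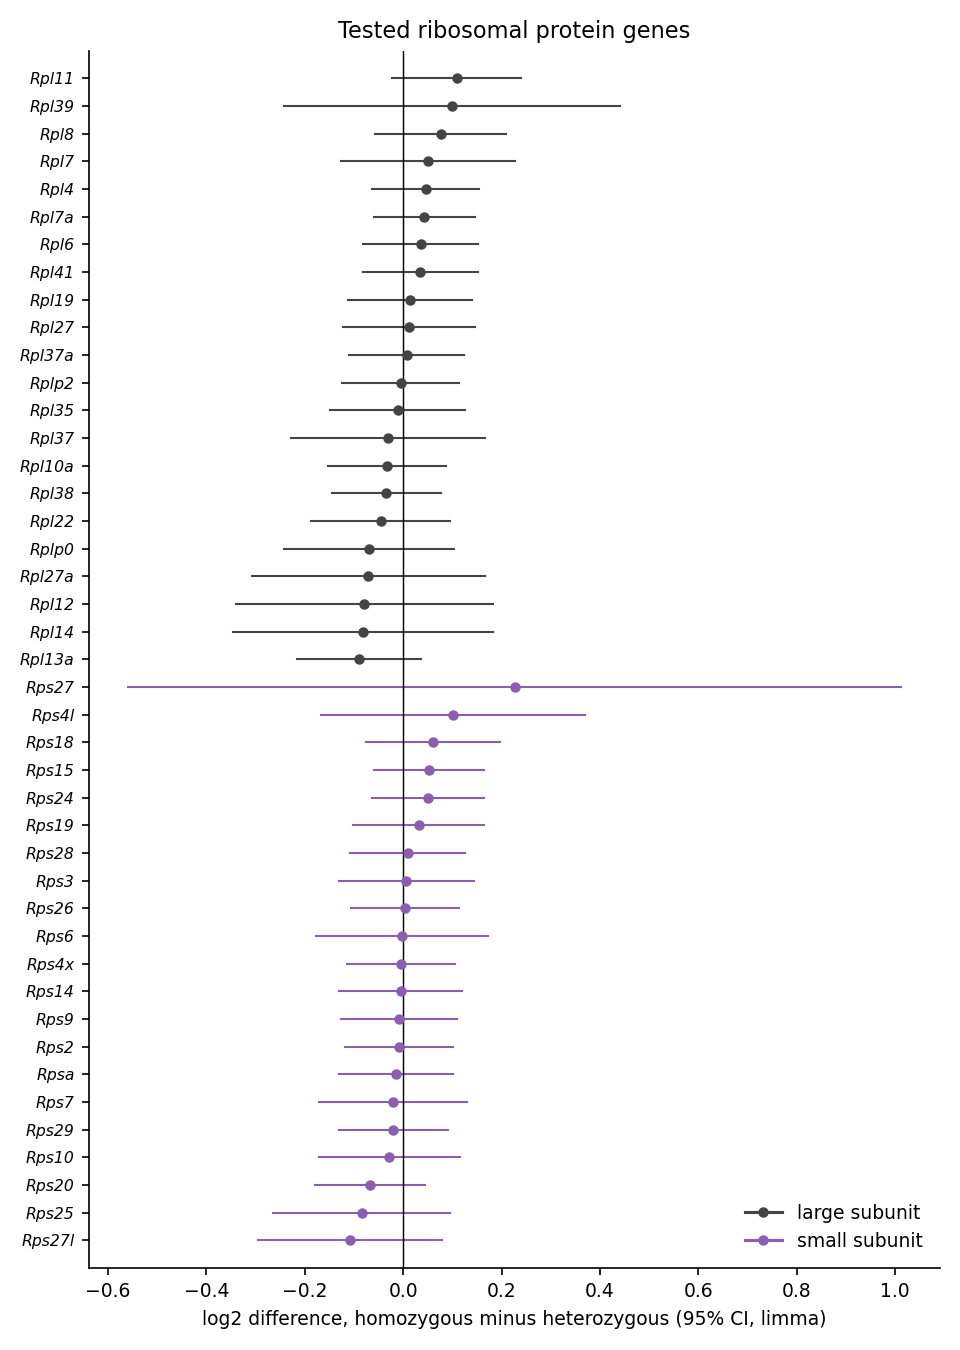
Log2 difference, homozygous minus heterozygous, of each of the 43 tested ribosomal protein genes with its 95% confidence interval from limma (3 arrays a group). The genes lie on both sides of 0, all but Rps27 within 0.15 of it, and every interval crosses 0.

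The genes of the large subunit lay evenly around 0. Of 22 tested, 11 were higher and 11 lower in homozygous samples, with a median difference of 0.0007 and a range of -0.09 to 0.11. Rpl7a, a protein that binds ribosomal RNA early in assembly, read 21599, 22117 and 21642 in homozygous samples. It read 20997, 21049 and 21385 in heterozygous samples. All homozygous arrays were above all heterozygous ones, but the difference was 0.04 (SE 0.046, limma adjusted p = 0.93). Rpl38, known for its part in translating Hox mRNAs in the mouse embryo, read 23868, 23343 and 24845, against 24601, 25399 and 23803. Its groups overlapped, with a difference of -0.03 (SE 0.050). Rpl11, which can bind and hold back the p53 regulator Mdm2, had the largest difference of the large subunit and was singled out after its values were seen. It read 12461, 13833 and 13205 against 12326, 12601 and 11678, a difference of 0.11 (SE 0.059, limma unadjusted p = 0.094, adjusted p = 0.89). Homozygous 1 lay below heterozygous 2, so these groups overlapped too.

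The stalk of the large subunit, the flexible arm that recruits elongation factors, is built from Rplp0 with pairs of Rplp1 and Rplp2. Rplp0 read 15422, 15779 and 15335 in homozygous and 14427, 16292 and 18357 in heterozygous samples. The heterozygous arrays held both the lowest and the highest value, and the difference was -0.07 (SE 0.078), which was -0.16 without heterozygous 1 and 0.02 without heterozygous 3. Rplp2 read 20886, 21949 and 20680 against 20542, 22449 and 20789, a difference of -0.01 (SE 0.054). Rplp1 was only on a probe set that names a second gene, so it has no value of its own here. The dim probe sets of the large subunit were Rpl12, a neighbour of the stalk, with 281.5, 251.7 and 282.1 against 314.3, 269.3 and 284.5, and Rpl14, with 364.9, 335.4 and 382.5 against 428.0, 398.2 and 330.9. Both differed by -0.08, with SEs of 0.12, and both had overlapping groups. Without heterozygous 1 these differences were -0.02 and -0.01, and that of Rpl14 was -0.18 without heterozygous 3.

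The genes of the small subunit did the same. Of 21 tested, 9 were higher and 12 lower in homozygous samples, with a median of -0.0041 and a range of -0.11 to 0.23. Rps29, the brightest, a small zinc-binding protein mutated in some families with Diamond-Blackfan anaemia, read 23652, 24725 and 25680 in homozygous and 25274, 25333 and 24470 in heterozygous samples. Its groups overlapped, with a difference of -0.02 (SE 0.050). Rps14, whose loss underlies the anaemia of the 5q deletion syndrome in humans, read 22174, 21860 and 23215 against 21254, 23910 and 22391, a difference of -0.01 (SE 0.056). Rps28 read 19991, 21422 and 20350 against 19816, 21279 and 20296, a difference of 0.01 (SE 0.053). The groups of Rps28 covered almost the same range, and the homozygous values of Rps14 lay within its wider heterozygous range. Rps7, another Diamond-Blackfan gene, read 19603, 18677 and 19821 against 19660, 21544 and 17866. Here heterozygous 2 was the highest array and heterozygous 3 the lowest, and the difference was -0.02 (SE 0.068).

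Rpsa, a small-subunit protein also known as the laminin receptor, read 14689, 15200 and 15381 in homozygous and 14855, 15857 and 15031 in heterozygous samples. The groups overlapped, with a difference of -0.01 (SE 0.052). Rps6, the classic substrate of the S6 kinases downstream of mTORC1, read 1202, 1117 and 1108 against 1181, 1111 and 1139 on its dim probe set, a difference of -0.00 (SE 0.079). Rps25, which many viral internal ribosome entry sites need, read 892.9, 911.1 and 884.0 against 993.6, 952.0 and 913.4. It was lower on all homozygous arrays, but by only -0.08 (SE 0.081). The widest spread belonged to the Rps27 probe set, with 188.6, 516.6 and 476.3 in homozygous and 529.1, 260.5 and 200.2 in heterozygous samples. Homozygous 1 lay with heterozygous 2 and 3, and heterozygous 1 with homozygous 2 and 3. The resulting difference of 0.23 had an SE of 0.36, and it was 0.64 without homozygous 1, 0.59 without heterozygous 1 and -0.04 without heterozygous 3.

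Some ribosomal protein genes have a second copy with its own regulation. Rps27l, a p53-responsive copy of Rps27, read 5904, 5592 and 5548 in homozygous and 5629, 7036 and 5791 in heterozygous samples. The difference of -0.11 (SE 0.085) rested on heterozygous 2, the highest array, and was -0.01 without it. Rpl3l, the copy of Rpl3 that striated muscle uses, was near the floor of the array, with 3.1, 5.3 and 8.2 against 9.3, 21.9 and 24.7, and was not tested. Rpl39l, a copy of Rpl39 best known from testis, was also below the level of testing, with 108.3, 82.6 and 103.2 against 119.8, 86.8 and 86.9. Its groups overlapped. Rps4l, a copy of Rps4x, read 1859, 1685 and 2007 against 2030, 1764 and 1417, a difference of 0.10 (SE 0.12). It rested on heterozygous 3, the lowest array, and was -0.04 without it and 0.22 without heterozygous 1. The Rps16 probe set that names this gene alone gave 1.2, 1.6 and 19.7 against 1.0, 21.4 and 10.4, so Rps16 has no usable value of its own here. Other copies that escape the symbol choice, Rpl7l1 and Rpl22l1, differed by -0.14 (SE 0.086) and -0.15 (SE 0.12).

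Of the X-linked genes, Rps4x read 18210, 18414 and 18425 in homozygous and 17794, 19001 and 18431 in heterozygous samples. The difference was -0.00 (SE 0.049), with a 95% interval of -0.11 to 0.11. Rpl39, which lines the exit tunnel of the large subunit, read 422.4, 600.6 and 539.5 against 390.0, 574.9 and 488.6. Its groups overlapped, with a difference of 0.10 (SE 0.15), which was -0.04 without heterozygous 1. Rpl10 and Rpl36a were only on probe sets that name several genes. The sex-linked transcripts were uneven among the arrays: Xist read 112.0, 5727 and 10210 against 7041, 9957 and 8164, and the Y-linked Eif2s3y read 1485, 1060 and 8.0 against 435.1, 32.8 and 532.6. Rps4x on homozygous 1, where Xist was lowest, lay within the range of the other arrays.

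For most genes with several tested probe sets, the differences lay within 0.15 of each other, but their signs often differed. Of the 46 genes, 23 had 1 probe set, 7 had 2, 9 had 3, 3 had 4 and 4 had 6. In the 19 genes with at least 2 tested probe sets, the median gap between the highest and the lowest difference was 0.096, against 0.14 over 5078 genes. The gap was under 0.15 in 13 of the 19 (68.4%), against 53.4% of all such genes, which were not matched for brightness. The probe sets had the same sign in 9 of the 19. The 3 probe sets of Rps28 lay closest, with a gap of 0.0082. The widest gaps after Rps9 (2.31) were those of Rps10 (0.40), Rpl41 (0.29), Rpl7 (0.24), Rpl37a (0.17) and Rps24 (0.16).

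The dimmer probe set was the deviating one in most of these genes. Of Rpl41, 1454639_x_at read 674.4, 577.5 and 617.3 in homozygous and 480.0, 433.5 and 566.1 in heterozygous samples. All homozygous arrays were above all heterozygous ones, with a difference of 0.32 (SE 0.11, 95% interval 0.07 to 0.57, limma unadjusted p = 0.018, adjusted p = 0.86). It ranged from 0.24 to 0.48 over the alternatives that tested it. The other Rpl41 probe sets differed by 0.18 (1433530_at), 0.06 (1422623_x_at) and 0.03 (the bright 1455578_x_at). Of Rps10, 1439374_x_at read 3571, 2940 and 4406 in homozygous and 3466, 7573 and 4082 in heterozygous samples. Heterozygous 2 alone stood high: the difference of -0.40 (SE 0.24, limma adjusted p = 0.90) was -0.07 without it. The brightest Rps10 probe set differed by -0.03 (SE 0.065).

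In the other genes with wide gaps, the probe sets lay on both sides of 0. Rpl7 1426163_x_at, with 7251, 5649 and 7240 against 7153, 6990 and 8729, differed by -0.18, and the brighter 1426162_a_at, with 18862, 19113 and 16610 against 15609, 18507 and 18662, by 0.05. Rpl37a 1416218_x_at, with 1065, 928.0 and 819.8 against 1092, 969.4 and 993.9, differed by -0.12, and 1416217_a_at by 0.05. Rps24 1453362_x_at, with 16471, 16492 and 16360 against 15230, 18580 and 18121, differed by -0.07, and the dim 1455195_at by 0.09. Groups overlapped in each of these probe sets of Rpl7 and Rpl37a and in both of Rps24.

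The design of the probe sets differed between bright and dim members. Of the 100, 40 carried the suffix _x_at, which marks probes that also match other sequences, 26 carried _a_at, 3 carried _s_at and 31 had none. The mouse genome holds many processed copies of ribosomal protein genes that such probes can match. The probe sets with no suffix were the dimmer ones, with a median signal of 338 against 16603 for _x_at, and 18 of 31 were tested against 38 of 40. The median difference was 0.00 for those with no suffix and -0.02 for _x_at, whose range of -2.25 to 0.32 held both members at an unadjusted limma p under 0.05. A further 110 probe sets name a ribosomal protein gene together with other genes and bring in 28 genes that have no probe set of their own. Of the 100 tested, 0 had a limma adjusted p under 0.05, and their median difference was -0.01. At an unadjusted limma p under 0.05 there were 2 (2%), against 5.73% of all probe sets tested. Both were lower in homozygous samples, as were 2.4% of all at this level. The brighter, 1434358_x_at, which lists Rps21 among 2 genes, read 9261, 10020 and 10915 against 11483, 14532 and 10451. Its groups overlapped, with a difference of -0.26 (SE 0.11, limma unadjusted p = 0.035, adjusted p = 0.86). The other probe sets listing Rps21 differed by -0.15 to 0.01. The dimmer, 1453752_at, which lists Rpl17 among 4 genes, read 124.8, 153.9 and 134.1 against 180.9, 325.2 and 412.3 and had no overlap (difference -0.91, SE 0.23, limma adjusted p = 0.86). It cannot be assigned to 1 gene, and the other probe sets listing Rpl17 differed by -0.07 to 0.06.

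**Figure D3:**
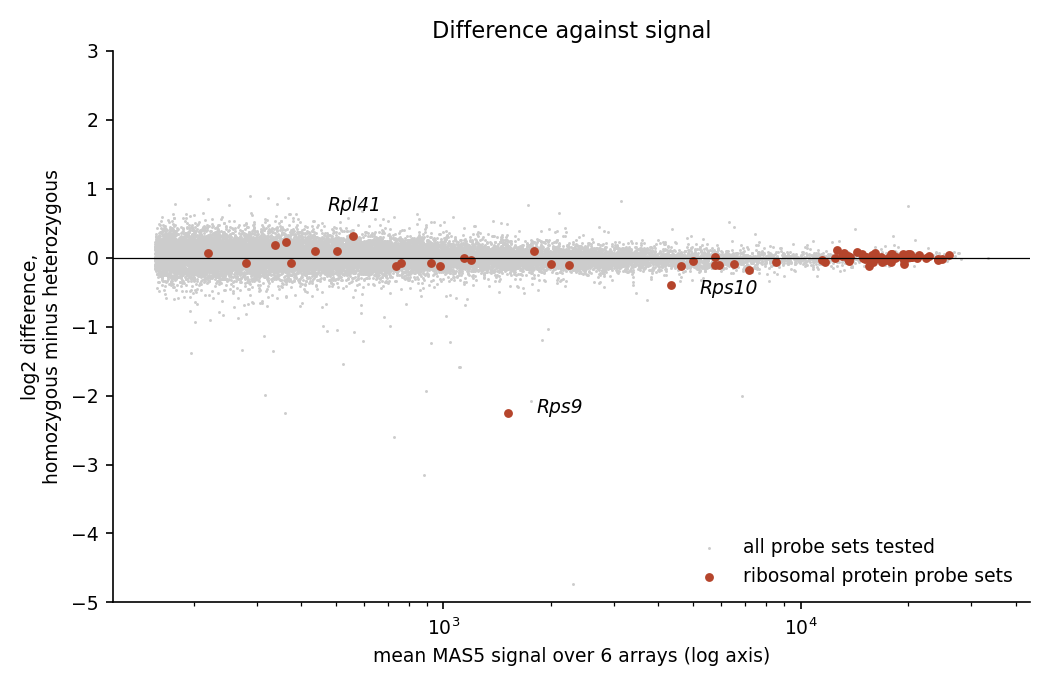
Log2 difference, homozygous minus heterozygous, of each tested probe set against its mean signal (log axis), with ribosomal protein probe sets marked over all probe sets tested. Most of the 84 lie at the bright end close to 0, and the Rps9 probe set at -2.25 stands far below them.

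Rps9, a protein at the entry of the mRNA channel of the small subunit, was the one gene whose probe sets parted widely. Its probe set 1434624_x_at read 312.7, 282.2 and 372.7 in homozygous samples and 293.1, 3109 and 4715 in heterozygous 1, 2 and 3. Heterozygous 2 and 3 stood at least 8.34-fold above the other 4 arrays, and the library labelled heterozygous 1 lay within the homozygous range. The difference was -2.25 (SE 0.74, 95% interval -3.88 to -0.62, limma unadjusted p = 0.011, adjusted p = 0.86). Without heterozygous 1 it was -3.43 (SE 0.17, limma adjusted p = 1.45e-05), and this was the 1 called probe set of the 84, when 0.111% of all probe sets were called. This omission takes out the heterozygous array that lay apart at this same probe set. The smaller SE and p follow from that choice and are no separate support. Without heterozygous 1 and 3, which leaves 1 heterozygous array, the difference was -3.13. It was -1.81 without heterozygous 2 and -1.51 without heterozygous 3.

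The other probe sets of Rps9 did not show this. The bright 1433689_s_at read 15144, 14845 and 14868 in homozygous and 14773, 15834 and 14541 in heterozygous samples, a difference of -0.01 (SE 0.053). The dim 1426958_at read 222.8, 244.0 and 209.1 against 201.7, 220.2 and 217.1, a difference of 0.07 (SE 0.13). Both had overlapping groups. A gap as wide as that between the Rps9 probe sets was found in 3 of 5078 genes. The order of the arrays was that of the Omp probe set used to check the labels: heterozygous 2 and 3 both more than 5 times the highest of the other 4 arrays and above a signal of 500. This order, set after the values were seen, held for 5 of 45101 probe sets, which were those of Rps9 and Omp, 1432198_at of Prune2 and the unnamed 1431213_a_at and 1431214_at. Whether 1434624_x_at measures Rps9 mRNA was not tested.

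**Figure D4:**
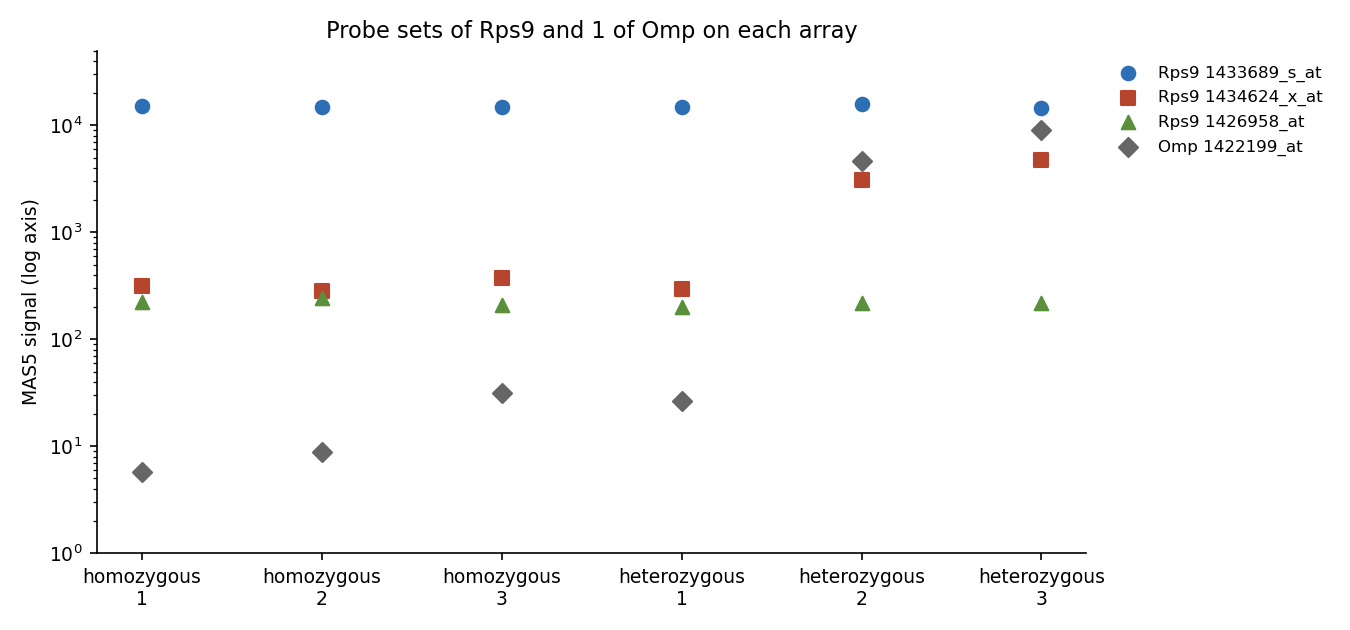
MAS5 signal (log axis) of the 3 probe sets of Rps9 and of the Omp probe set that checks the labels on each of the 6 arrays, 1 point each. The Rps9 probe set 1434624_x_at is high with that of Omp in heterozygous 2 and 3 alone, while the bright and the dim Rps9 probe sets stay level.

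The ribosomal protein genes shifted together between single arrays, by small amounts, and the heterozygous group held both the lowest and the highest array. On the log2 scale, their median deviation from each gene's mean was -0.02, -0.00 and 0.02 in homozygous 1, 2 and 3 and -0.05, 0.05 and -0.02 in heterozygous 1, 2 and 3. Heterozygous 2 was the highest array for 21 of 43 genes (48.8%), against 16.4% of all probe sets tested, and the lowest for 0 of them, against 18.2% of all. Heterozygous 1 was the lowest array for 20 of 43 (46.5%), against 18.2% of all, and heterozygous 3 for 11 (25.6%), against 23.9%. The large and the small subunit moved alike, at -0.05 and -0.03 in heterozygous 1 and at 0.05 each in heterozygous 2. The deviations of 263 other probe sets of like brightness were 0.01 in heterozygous 1 and 0.02 in heterozygous 2. The rank of heterozygous 1 among the arrays depended on the scaling. After shifting the arrays to a common median it was the lowest array for 4 of 43 genes, against 9.71% of all probe sets tested. Heterozygous 3 was then the lowest for 25, against 32.9% of all. The genes' median deviation in heterozygous 1 was then 0.02, against 0.08 for the 263 others. Under each scaling the genes lay below the 263 others in heterozygous 1. After quantile normalization the medians were smaller: -0.02 in heterozygous 1, against 0.03 for the 263 others, and 0.02 in heterozygous 2, against -0.02. Heterozygous 1 was then the lowest array for 15 of 43 genes, against 16.2% of all probe sets tested. Heterozygous 2 was the highest for 14, against 17.3%. After the shift heterozygous 2 was the highest for 29, against 24.0%, at a median deviation of 0.10, against 0.07 for the 263 others. Heterozygous 1 is the library with the high myelin glia markers, and the part of other cells in these shifts was not tested.

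**Figure D5:**
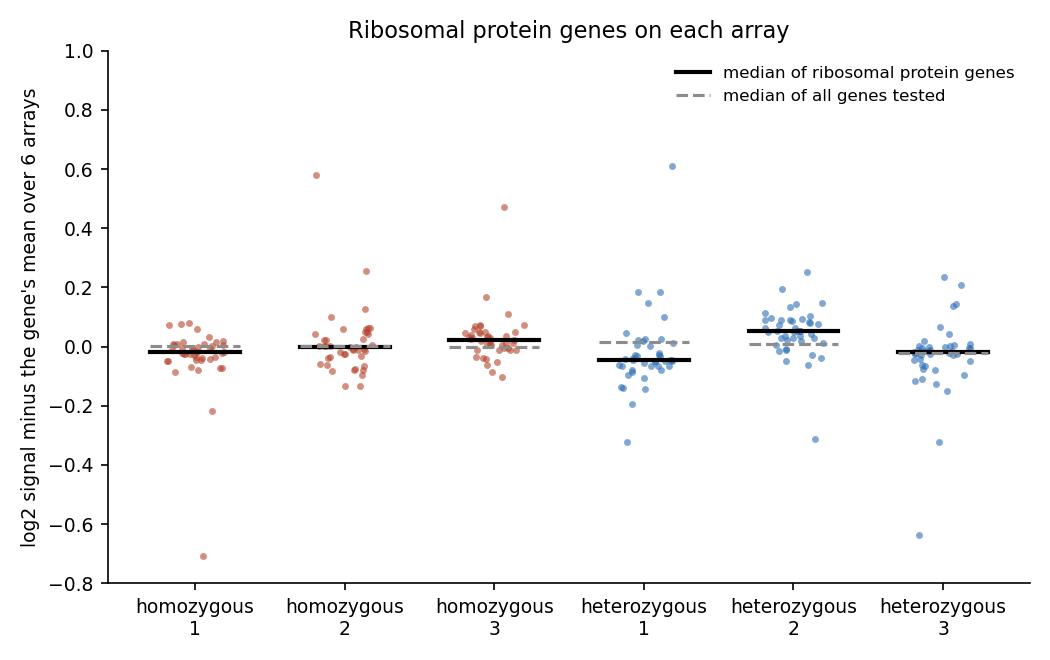
Log2 signal of each of the 43 tested ribosomal protein genes minus that gene's mean over the 6 arrays, 1 point for each gene, with the median of these genes (solid line) and of all genes tested (dashed line). The median is lowest in heterozygous 1 (-0.05) and highest in heterozygous 2 (0.05), and the far points in several arrays are those of the dim Rps27 probe set.

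Genes that work with the ribosome were also not called: in each of the following lists 0 genes had a limma adjusted p under 0.05. Ribosomal protein genes outside the symbol choice gave 4 tested genes, among them Fau, which encodes a small-subunit protein fused to a ubiquitin-like one, with a difference of 0.06, and Rps3a1, with 0.04. Of 11 elongation and termination factors, 6 were higher and 5 lower (median 0.0014), and Eef1a1, which carries aminoacyl-tRNA to the ribosome, differed by 0.02 (SE 0.046). At an unadjusted limma p under 0.05, 2 of the 11 (18.2%) were lower, against 2.4% of all probe sets tested and 5.73% in either direction. They were Eef1e1, which assembles with tRNA synthetases, and Eif5a2, a hypusine-containing elongation factor, both at -0.23. Its widespread relative Eif5a differed by -0.12. Of 32 initiation factors, 13 were higher and 19 lower (median -0.01). The X-linked Eif2s3x was the 1 (3.1%) at an unadjusted limma p under 0.05, at -0.21 (SE 0.097). It read 3783, 4309 and 4949 against 4648, 5393 and 5045. Its lowest array was homozygous 1, the array of lowest Xist, and the part of sex in this was not tested. Eif2b1 differed by -0.15, Eif4a1 by -0.03 and Eif4g2 by -0.09.

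Other mRNAs that begin with a pyrimidine run had a median of 0.05 over 12 genes, 7 higher and 5 lower, with 0 at an unadjusted limma p under 0.05. Tpt1, the translationally controlled tumour protein, differed by 0.06, Tmsb4x by -0.04 and Vim by -0.08. Of 43 ribosome assembly factors, 22 were higher and 21 lower (median 0.0001). Wdr43, a nucleolar factor of small-subunit assembly, was the 1 (2.3%) at an unadjusted limma p under 0.05, against 5.73% of all probe sets tested. It read 906.5, 913.6 and 794.0 in homozygous and 730.9, 711.8 and 722.4 in heterozygous samples with no overlap (difference 0.26, SE 0.089, limma adjusted p = 0.86). Nucleophosmin, Npm1, differed by 0.07, Nop14 by 0.17 and Nop10 by -0.08. Of 16 genes of RNA polymerase I, which transcribes ribosomal RNA, 7 were higher and 9 lower (median -0.03), with 0 at an unadjusted limma p under 0.05. Of 21 genes of mTORC1 and Myc control, 13 were higher and 8 lower (median 0.03). The Myc antagonist Mnt was the 1 (4.8%) at an unadjusted limma p under 0.05, at 0.24. Tsc1, an inhibitor of mTORC1, differed by 0.26 (limma unadjusted p = 0.054).

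The mitochondrial ribosome has its own proteins, and most of their genes lay lower in homozygous samples. Of 75 tested, 17 were higher and 58 lower in homozygous samples, with a median of -0.04 and a range of -0.25 to 0.13. That is 77.3% lower, against 50.2% of all genes. The split was 20 and 55 after quantile normalization and 8 and 67 after the shift to a common median, where 65.4% of all genes were lower. At an unadjusted limma p under 0.05 there were 5 of 75 (6.67%), all lower, against 5.73% of all probe sets in either direction and 2.4% lower. With arrays left out, which was chosen after seeing the data, the split moved most with heterozygous 2. Without it 39 of 75 were lower (52%, against 48.4% of all genes), the median was -0.00 and 0 had an unadjusted limma p under 0.05. Leaving out heterozygous 1 gave 47 lower (62.7%, against 47.7% of all genes). Leaving out heterozygous 3 gave 69 (92%, against 53.8% of all genes). Of these, 12 had an unadjusted limma p under 0.05, against 436 lower ones of all 11391 genes tested then. Leaving out both gave 70 (93.3%, against 52.0% of all genes). Without any 1 homozygous array 54 or 55 were lower, against 49.6% to 50.5% of all genes, with 1 at an unadjusted limma p under 0.05. Mrpl54 read 775.1, 845.0 and 938.0 against 953.1, 1107 and 995.8, a difference of -0.25 (SE 0.098) with no overlap. Mrps36 read 1043, 1098 and 1080 against 1261, 1428 and 1138, a difference of -0.24 (SE 0.094), also with no overlap. The brighter Mrpl27 and Mrpl51 differed by -0.06 and -0.03. By array, the median deviation of these 75 genes was 0.04 in heterozygous 1, 0.11 in heterozygous 2 and -0.06 in heterozygous 3. In the deposited scaling heterozygous 1 was thus above the gene means for the mitochondrial ribosome and below them for the cytosolic one. A test of the difference between the lists was not made.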

How the data were processed

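Total RNA of 6 olfactory epithelium samples was hybridised to 1 Affymetrix array each, after biotin labelling per the labels. The authors deposited linear intensity values per probe set, made with MAS5 per the submitters' processing notes, without a version or settings in those notes. No further scaling was applied. Values were taken as log2(value + 38.8), the offset being the pooled 25th percentile, which understates differences of dim probe sets. Probe sets with a mean log2 value at or above the median were compared with limma 3.58.1 in R 4.3.3 (lmFit, eBayes with an intensity trend, 4 residual and 6.68 prior degrees of freedom, Benjamini-Hochberg adjustment), which was tested on simulated data. Control probe sets (64) were left out. Of the 45101 in the table, 34945 had 1 annotated gene, 932 had more and 9224 had no gene.

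Named were the members at an unadjusted p under 0.05 without overlap, the 4 brightest and 4 dimmest of each subunit, stalk genes, Rpsa, X-linked genes, copies and the 6 genes of widest gap between probe sets; from other lists the 2 of lowest p and the 2 brightest. Members and lists were chosen with earlier results of these data known. The alternatives were other offsets, scalings, filters and variance models, a replicate block, arrays left out, and other choices of probe set per gene. No 2 arrays shared more than 101 identical values. The number of arrays limits the precision.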

Additional observations from a re-analysis of the deposited data

How the results depend on the processing

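The count of ribosomal protein probe sets with a limma adjusted p under 0.05 was 0 under all alternatives but those without heterozygous 1. The 1 probe set then called was Rps9 1434624_x_at, at which heterozygous 1 lay with the homozygous arrays. With 1 array left out the count ranged from 0 to 1. The count at an unadjusted p under 0.05, 2 in the report, was 4 after quantile normalization and 5 without a filter on low values. It was 1 with a filter at the 75th percentile, 1 with robust eBayes and 0 of 19 over probe sets without a suffix. With 1 array left out it ranged from 1 to 6. The share over all probe sets tested was 5.73% in the report and 7.06% without heterozygous 1, the setting that gave 6. It moved with the setting and is not set beside the other counts of this section, so these are not read as high or low. The median difference of all, large-subunit and small-subunit genes moved by more than the spread between arrays with all arrays moved to the same median. There it was -0.0464, -0.0415 and -0.0464, against -0.0427 over all genes tested and -0.0321 over all probe sets. It also did so without heterozygous 1 and 3 (-0.0587, -0.063 and -0.0587). Over probe sets without a suffix that of the large subunit was -0.066. With 1 array left out, the medians ranged from -0.0223 to 0.0344, from -0.0271 to 0.0371 and from -0.0191 to 0.0287. The cause of these moves was not tested. Of 30 named probe sets, 12 kept their sign in all 18 alternatives that gave them a value and 18 did not, among them Rps27, Rps4l and Rpl39. The replicate numbers of the titles were not taken to pair the samples, since the deviations of same-numbered arrays correlated at 0.016, -0.116 and -0.047 and 0 of 6 arrays correlated best with its own number. With the replicate block, 0 probe sets were called, 3 had an unadjusted p under 0.05 and the median difference was -0.0041. Detection calls were not used here, so signals near the floor are not called absent.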
